A study of Mus musculus with 2 samples.

Results

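Fmr1, its paralogs Fxr1 and Fxr2, and the CYFIP genes Cyfip1 and Cyfip2 were described as a set of 5 of 21938 protein-coding genes, by the N6-methyladenosine (m6A) positions listed in them. A position belonged to the set when it lay inside the GENCODE M21 interval of 1 of these genes on GRCm38 and on the strand of that gene. This rule found 63 of the 219409 different positions in the series. In the cerebellum library 11 of 79355 listed positions were inside the 5 genes, and in the cerebrum library 57 of 188295. Of the 63 positions, 5 were listed in both libraries, 6 in the cerebellum library only and 52 in the cerebrum library only.

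The study profiled m6A in hybrids of the mouse strains C57BL/6J (C57) and PWK/PhJ (PWK), and the data described here are 2 position lists, with 1 library for the cerebellum and 1 for the cerebrum. Both libraries were labelled as female F1r, in which the mother was C57 and the father PWK, at postnatal day 0 (P0), and no engineered allele or treatment of the animals was given. Poly(A)+ RNA was treated with glyoxal and nitrite (GLORI), which converts unmethylated adenosine so that it is read as G, while m6A is still read as A. Per the methods of the study both RNA samples came from 1 female mouse, and with 1 library per tissue no difference between tissues could be tested.

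FMRP, the product of Fmr1, and the related proteins FXR1 and FXR2 are RNA-binding proteins that regulate the translation, transport and stability of neuronal mRNAs, and loss of FMRP causes fragile X syndrome. CYFIP1 and CYFIP2 are alternative subunits of the WAVE regulatory complex, which drives branched actin assembly downstream of Rac1, and CYFIP1 also binds FMRP and the cap-binding protein eIF4E. m6A is deposited mainly on adenosines within the motif DRACH, where D is A, G or T, R is A or G and H is A, C or T, and it is known to be dense near stop codons and in long exons, and sparse close to exon junctions.

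The lists gave positions without rates or read counts. An unlisted adenosine may have been unmethylated, not expressed or thinly covered, and these cannot be told apart. The cerebrum library held 2.37 times as many positions as the cerebellum library. Inside coding genes 63.3% of cerebellum positions and 47.6% of cerebrum positions were at DRACH adenosines. The tissue labels were checked by the presence of any position in marker genes. Of 14 forebrain genes, 5 had a position in the cerebellum library and 14 in the cerebrum library. Of 14 hindbrain and cerebellum genes, 8 had a position in the cerebellum library and 5 in the cerebrum library. En1 and En2 had 6 and 9 positions in the cerebellum library and were listed at 0 in the cerebrum library. The cerebellar genes Atoh1, Pax2 and Skor2 were listed at 0 in both. Chromosome Y held 14 positions in the cerebellum library and 30 in the cerebrum library although both were labelled female, and Xist, the RNA of the inactive X chromosome, held 83 and 80. The part of this mismatch in the results below was not tested.

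The sequences of the set's DRACH sites show where the listed methylation lay. All 63 positions were an A in GRCm38. The sites of each gene are numbered from its 5′ end, each line gives the 25 nt around a site on the strand of the gene, with coordinates on GRCm38, and capitals mark the 5-mer with the listed adenosine at its centre. The first lines are the exonic DRACH sites in 3′ UTRs, which only Fxr2 and Cyfip2 had. Fxr2 site 3 and Cyfip2 sites 19 and 22 were listed in both libraries, and the other three in the cerebrum library only.
Fxr2 site 3, chr11:69652923-69652947, plus strand: cttccctttcAGACTggatgtgcct
Cyfip2 site 17, chr11:46196203-46196227, minus strand: caggtccagtTGACAgtgtgtggac
Cyfip2 site 18, chr11:46196192-46196216, minus strand: gacagtgtgtGGACAggtctggaag
Cyfip2 site 19, chr11:46196059-46196083, minus strand: aaaacaacaaAAACAcagggcagtg
Cyfip2 site 20, chr11:46195886-46195910, minus strand: atagtcttagAGACAtagaagagaa
Cyfip2 site 22, chr11:46194208-46194232, minus strand: tgcaaactctGGACAacttcaatgc

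The other 4 exonic DRACH sites of the set lay in the last 130 nt of the Cyfip2 coding sequence (CDS). This stretch is shown because the same stretch of Cyfip1 had no listed DRACH site. Both run to the last base of the stop codon. In the Cyfip2 stretch, at chr11:46196300-46196429 on the minus strand, capitals mark the 5-mers of the 4 listed sites, which were also its only DRACH 5-mers. In the Cyfip1 stretch, at chr7:55930033-55930162 on the plus strand, capitals mark the only DRACH 5-mer, which was listed in neither library. Cyfip1 site 15, at GTAGC and not DRACH, also lay in this stretch and is left in lower case. It was listed in the cerebrum library only.
Cyfip2: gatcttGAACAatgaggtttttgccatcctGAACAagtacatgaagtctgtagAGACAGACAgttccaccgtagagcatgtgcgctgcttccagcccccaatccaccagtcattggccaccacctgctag
Cyfip1: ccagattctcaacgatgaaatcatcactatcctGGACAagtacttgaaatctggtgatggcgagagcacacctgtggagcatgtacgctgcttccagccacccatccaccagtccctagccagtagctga

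The last lines show DRACH sites outside the exons of the reference isoforms, which were all that Fmr1, Fxr1 and Cyfip1 had. Of these, Cyfip2 site 5 was listed in both libraries, Fxr1 site 10 in the cerebellum library only, and the others in the cerebrum library only.
Fmr1 site 5, chrX:68712144-68712168, plus strand: atcacccctgAAACTtcatctctgg
Fxr1 site 10, chr3:34053389-34053413, plus strand: cacgcatgacAGACTtactttatct
Cyfip1 site 3, chr7:55899893-55899917, plus strand: attgtcgtttGAACCcttcaagaaa
Cyfip1 site 7, chr7:55903415-55903439, plus strand: cttcaactttGAACTcatcctcttc
Cyfip1 site 8, chr7:55903560-55903584, plus strand: atgctctgttGGACAgtaagatcat
Cyfip2 site 5, chr11:46236995-46237019, minus strand: atgacttttgTGACTgtctaaccca

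The first question was how many sites each gene held in each tissue. Fmr1 had 0 sites in the cerebellum library and 7 in the cerebrum library. Fxr1 had 2 and 13. Fxr2 had 1 and 4. No gene of the FMRP family had more than 2 sites in the cerebellum library. Cyfip1 had 0 in the cerebellum library and 15 in the cerebrum library. Cyfip2 had 8 and 18, the most of the 5 genes in each library. All 5 counts were higher in the cerebrum library, as was the total over all genes. At least 1 site was present in 3 of the 5 genes in the cerebellum library, where 41.2% of coding genes had one, and in 5 of 5 in the cerebrum library, where 57.4% had one.

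**Figure D1:**
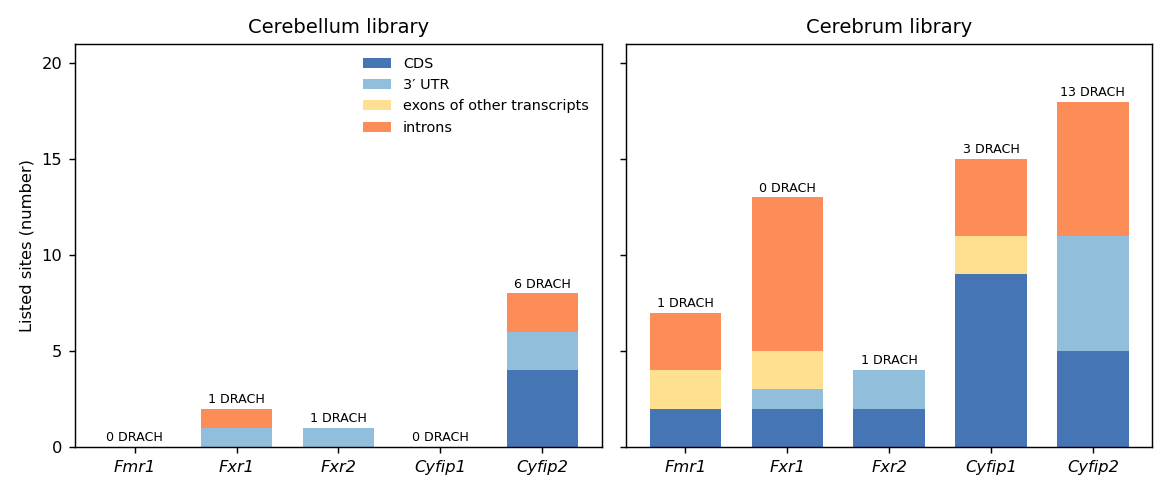
Bars give the number of listed sites (y axis, from 0) in each of the 5 genes (x axis) in the 1 cerebellum library (left) and the 1 cerebrum library (right), coloured by region, with the number at DRACH adenosines above each bar. Of the 11 cerebellum sites 8 were in Cyfip2, as were 13 of the 18 DRACH sites in the cerebrum library.

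Among the 12601 coding genes with a cerebrum site, whose median was 7 sites, Fmr1 lay at the median and 49.3% of genes had fewer. Cyfip2 had more sites than 77.2% of them, Cyfip1 than 72.5%, Fxr1 than 68.5% and Fxr2 than 32.7%. Among the 9043 genes with a cerebellum site, whose median was 4, Cyfip2 had more than 68.9% and Fxr1 more than 21.7%, and Fxr2 was at the lowest count. Per kilobase of exon of the reference isoform, the cerebrum library held 0.454 exonic sites in Fmr1, 0.995 in Fxr1, 1.36 in Fxr2, 1.40 in Cyfip1 and 1.65 in Cyfip2. With 2 to 11 exonic sites behind each of these densities, the order of the neighbouring genes carries no weight. Fmr1 and Cyfip1 had no cerebellum site although each had 5 or more in the cerebrum library. This held for 2 of the 4 members with at least 5 cerebrum sites and for 8.92% of all coding genes with at least 5.

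**Figure D2:**
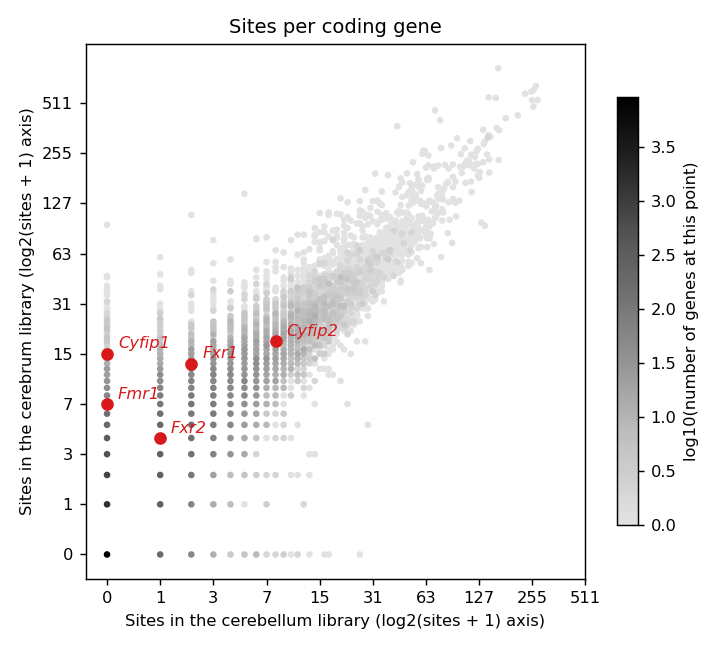
Each grey point is a combination of site counts in the cerebellum library (x axis) and the cerebrum library (y axis), both on log2(sites + 1) axes, shaded by the number of coding genes at it. The 5 genes are in red, with Fmr1 and Cyfip1 at 0 cerebellum sites and Cyfip2 at 8 and 18.

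Most sites of Cyfip2 were DRACH in both libraries. In the cerebellum library 6 of its 8 sites were DRACH, or 75% (95% Wilson interval 40.9 to 92.9), and in the cerebrum library 13 of 18, or 72.2% (49.1 to 87.5). In Cyfip1 3 of 15 cerebrum sites were DRACH, or 20% (7.05 to 45.2), an interval that did not overlap that of Cyfip2. In Fmr1, Fxr1 and Fxr2 together 2 of 24 cerebrum sites were DRACH, or 8.33% (2.32 to 25.9), below the 47.6% of all coding genes. Taken singly, the cerebrum intervals of Fmr1 (2.57 to 51.3) and Fxr2 (4.56 to 69.9) overlapped that of Cyfip2. In the cerebellum library 2 of the 3 sites of Fmr1, Fxr1 and Fxr2 were DRACH, or 66.7% (20.8 to 93.9), which gave no separation from Cyfip2. These intervals cover counting error over sites only, not the spread between animals. Fxr1 was the extreme case, with 0 DRACH sites among 13 in the cerebrum library. Its only DRACH site was in the cerebellum library. At least 1 DRACH site was present in 3 of the 3 members with a cerebellum site and in 84.9% of all coding genes with one. In the cerebrum library it was present in 4 of 5 members and in 78.8% of coding genes with a site.

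The sites that both libraries listed were all DRACH. Of the 21 DRACH sites of the set, 5 were listed in both libraries, 3 in the cerebellum library only and 13 in the cerebrum library only. Of the 42 sites at other 5-mers, 0 were listed in both, 3 in the cerebellum library only and 39 in the cerebrum library only. Over all listed positions, inside genes or not, 27.6% of cerebellum and 8.28% of cerebrum sites at other 5-mers were shared. The 0 of 3 and 0 of 39 were thus within counting error of the general shares. The shared sites were 45.5% of the cerebellum sites of the set (21.3 to 72.0), beside 60.8% over all listed positions. In the cerebrum library they were 8.77% (3.81 to 18.9), beside 25.6%. For DRACH sites the shares were 62.5% (30.6 to 86.3) beside 81.0%, and 27.8% (12.5 to 50.9) beside 45.3%. The cerebrum interval for sites at any 5-mer lay below the share over all listed positions, and the other 3 intervals included theirs. The 5 shared sites were Fxr2 site 3 and Cyfip2 sites 5, 16, 19 and 22. Fmr1, Fxr1 and Cyfip1 had no shared site.

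By transcript region, 23 of the 63 sites were in CDS, 10 in 3′ UTRs, 0 in 5′ UTRs, 6 in exons of other transcripts and 24 in introns. In the cerebrum library 3′ UTRs held 15.8% of the sites of the set and 34.3% of those of all coding genes, and introns 38.6% and 29.6%. For these shares over all coding genes, a site inside overlapping coding genes was counted once per gene. With DRACH sites only, the cerebrum 3′ UTR share of the set was 33.3% (16.3 to 56.3), beside 46.3% over all genes. The CDS share was 11.1% (3.10 to 32.8), beside 34.3%, and the intron share 44.4% (24.6 to 66.3), beside 13.2%. All of these intronic DRACH sites were in Cyfip2 intron 23 (6 sites) or Cyfip1 intron 18 (2 sites), so the intron share describes these introns rather than the set. In the cerebellum library 3′ UTRs held 36.4% and 41.6%, and introns 27.3% and 21.8%. Sites of the set in the 3′ UTR were found in Fxr1, Fxr2 and Cyfip2. Fmr1 and Cyfip1, with 3′ UTRs of 2288 and 2440 nt, had none in either library, as did 18.2% of coding genes with a site. That share is over genes with any number of sites and any 3′ UTR length, so it is not matched to Fmr1 and Cyfip1. The 3′ UTR of Cyfip2, 2450 nt long, held 6 sites.

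**Figure D3:**
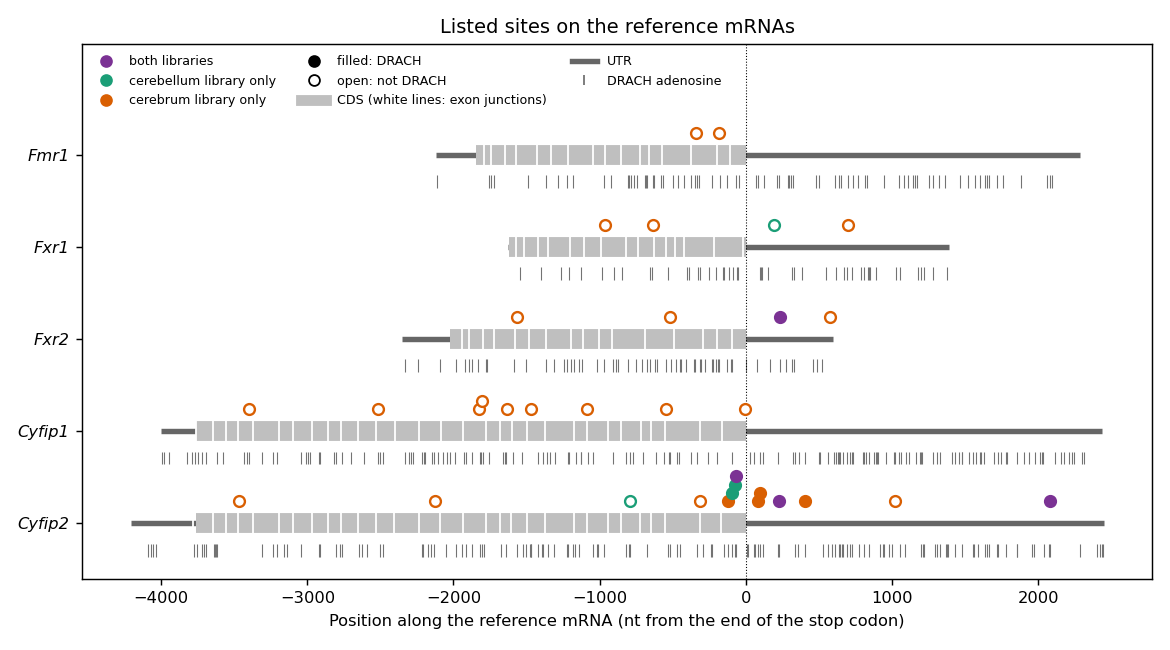
The reference mRNAs of the 5 genes are drawn to scale and aligned at the end of the stop codon (x axis, nt). Circles are listed sites, coloured by library, filled at DRACH and open at other 5-mers, and raised where they crowd. Grey ticks below each mRNA are its DRACH adenosines. Filled circles appear in Fxr2 and Cyfip2 only, and 8 of the 9 in Cyfip2 lie between 121 nt before and 402 nt after the stop codon.

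Fmr1 encodes FMRP, and its reference isoform of 17 exons held 2 exonic sites, both in the CDS and both in the cerebrum library only. Site 6, at an ACAGA 5-mer, was in exon 15 at codon 501, and site 7, at CGATC, was in exon 16 at codon 554. Neither was DRACH. The single DRACH site of Fmr1, site 5 at AAACT, was 75 nt upstream of exon 15. It lay within an exon of another transcript and within an exon that RefSeq gives for the gene. The other 4 sites, none of them DRACH, were in introns 3 and 13, and those of intron 13 were in soft-masked repeats.

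Fxr1, whose protein is abundant in muscle as well as brain, had 15 sites, and 11 of them were outside the exons of its reference isoform. Intron 1, of 19363 nt, held 5, all in the cerebrum library only and all without DRACH, and 2 of them were 2 nt apart within a soft-masked repeat. The 4 exonic sites were in exons 8 and 10 of the CDS, at TCATG and CTAGA, and in the 3′ UTR 191 and 701 nt after the stop codon, at TTACA and GCAGG. The first of the 3′ UTR sites was listed in the cerebellum library only and the second in the cerebrum library only. Site 10, the DRACH site, was in intron 9, 821 nt from an exon. Part of Fxr1 is overlapped on the opposite strand by Dnajc19, and 1 cerebellum site and 3 cerebrum sites of Fxr1 were in that overlap.

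Fxr2, which encodes the third RNA-binding protein of the family, had 4 sites, all exonic. The shared site 3, at AGACT, was in exon 17, 236 nt after the stop codon, in sequence that is soft-masked in GRCm38. The other three were in the cerebrum library only and were not DRACH. They were CCAAT in exon 6, AGATA in exon 13 and AGAAT 19 nt before the 3′ end of the isoform.

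Cyfip1 had 15 sites, all in the cerebrum library only. Its CDS held 9, none of them DRACH, spread over exons 5, 13, 17, 19, 21, 23, 29 and 31. The last of these, site 15 at GTAGC, was at codon 1253, the last before the stop codon. Its 3 DRACH sites were all outside the reference exons. Site 3, at GAACC, was 10 nt upstream of exon 17 and within an exon of another transcript of the gene. Sites 7 and 8, at GAACT and GGACA, were 145 nt apart in intron 18, and site 6, at GTACT, was 37 nt upstream of site 7. The same intron, of 3588 nt, held no other site.

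Cyfip2 had 22 sites in 2 main groups. The first was in intron 23, of 15798 nt, which held 7 sites, 6 of them DRACH. Sites 3 (TGACA), 4 (GAACA) and 5 (TGACT) followed one another at 124 and 242 nt, and site 5 was listed in both libraries. Sites 7 (AAACT), 8 (GAACT) and 9 (GAACT) lay further downstream at 67 and 17 nt, in the cerebrum library only. The shortest distance from any of the 6 DRACH sites to an exon of the isoform was 2631 nt. No RefSeq exon held any of them. Fndc9 overlaps part of Cyfip2 on the opposite strand, and 1 cerebellum site and 3 cerebrum sites of Cyfip2 were inside that overlap.

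**Figure D4:**
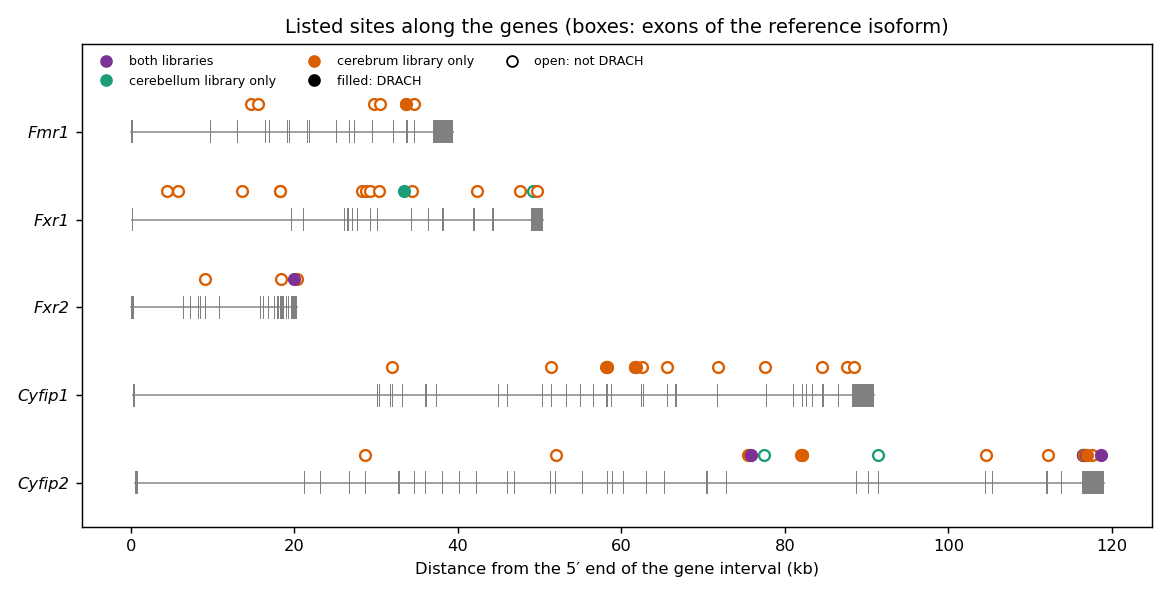
The 5 genes are drawn from the 5′ end of the interval (x axis, kb), with exons of the reference isoform as boxes. Circles are sites, coloured by library and filled at DRACH. Filled circles form a pair of groups in Cyfip2 intron 23 and 1 group at its last exon, while the sites of Fxr1 are mostly open circles in introns.

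The second group was in exon 31, the last exon of Cyfip2, which is 2618 nt long and held 10 sites, 9 of them DRACH. In the CDS, site 13 at GAACA was 121 nt before the last base of the stop codon and was listed in the cerebrum library only. Site 14 at GAACA, 97 nt before it, and site 15 at AGACA, 74 nt before it, were listed in the cerebellum library only. Site 16 at AGACA, at codon 1231 and 70 nt before it, was listed in both. Sites 15 and 16 were thus 4 nt apart, in AGACA motifs that share a base. In the 3′ UTR, sites 17 and 18 were 85 and 96 nt after the stop codon, site 19 was 229 nt after it, site 20 was 402 nt after it, and site 22 was 2080 nt after it. Site 19, at AAACA, was in soft-masked sequence. The tenth site, 21 at AAAAA, was soft-masked and in the cerebrum library only. The cerebellum library listed 5 of the 9 DRACH sites and the cerebrum library 7, with 3 in both.

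Near stop codons, within 200 nt along the mRNA, lay 4 of the 8 exonic cerebellum sites of the set, or 50% (21.5 to 78.5), and 6 of the 29 exonic cerebrum sites, or 20.7% (9.85 to 38.4). With DRACH sites only, 3 of 6 cerebellum sites were in the window, or 50% (18.8 to 81.2), and 4 of 8 cerebrum sites, or 50% (21.5 to 78.5), beside 21.65% and 21.74% of exonic DRACH sites over all coding genes. Of the 493 DRACH adenosines on the 5 reference isoforms 8.72% were in this window, below both intervals for DRACH sites. In the window Cyfip2 had 12 DRACH adenosines, and 3 were listed in the cerebellum library and 4 in the cerebrum library. The other 4 genes had 31 between them, and 0 were listed. Over the set 3 of 43 were listed in the cerebellum library, or 6.98% (2.40 to 18.6), and 4 of 43 in the cerebrum library, or 9.30% (3.68 to 21.6). These intervals included the shares over coding genes with a site, 12.2% and 15.2%. The cerebellum sets are unlike, as the 43 include 7 adenosines of Fmr1 and 6 of Cyfip1, which had no cerebellum site.

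DRACH adenosines were present in all 5 genes. The reference isoforms held 78 DRACH adenosines in Fmr1, 48 in Fxr1, 61 in Fxr2, 160 in Cyfip1 and 146 in Cyfip2. In Fmr1, Fxr1 and Cyfip1 0 were listed in either library. In Fxr2 1 was listed, in both libraries. In Cyfip2 5 were listed in the cerebellum library, or 3.42% (1.47 to 7.77), and 7 in the cerebrum library, or 4.79% (2.34 to 9.57). Over the 3 members with a cerebellum site 6 of 255 were listed, or 2.35% (1.08 to 5.04), while 5.52% were listed over all coding genes with a site in that library. Over all 5 members 8 of 493 were listed in the cerebrum library, or 1.62% (0.825 to 3.17), beside 7.31% over all coding genes with a site. Both intervals lay below the value over all genes, and those of Cyfip2 alone included it. They treat adenosines as independent and do not cover the spread between genes. All the listed adenosines were in Fxr2 and Cyfip2. In the cerebrum library the intervals of Fmr1 (0 to 4.69) and Cyfip1 (0 to 2.345) also lay below the value over all genes. Those of Fxr1 (0 to 7.41) and Fxr2 (0.29 to 8.72) included it. Whether the set as a whole differed from other genes was not tested. No exonic DRACH site in either library was found in 3 of the 5 genes and in 22.8% of coding genes with a site. Among coding genes with a site and at least 40 exonic DRACH adenosines, which all 5 members had, 20.6% had none of them listed, and 3 of the 5 members did.

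The 5-mers of the unlisted adenosines included those most often found at m6A sites. Over all coding genes with a site, one or both libraries listed 19.8% of GGACT adenosines, 17.3% of GAACT and 12.5% of GGACA. Cyfip1 had 8 GGACT, 9 GAACT and 13 GGACA on its reference isoform, and 0 of them were listed. Cyfip2 had 4 GGACT and 11 GAACT, and 0 were listed in either library, while 2 of its 11 GGACA, 2 of its 7 GAACA and 3 of its 16 AGACA were. The shares of GAACA and AGACA listed over all genes were 7.02% and 5.92%. With so few adenosines of each kind per gene, these counts are given as values only. All 9 of the exonic DRACH sites of Cyfip2 thus ended in CA, as its other listed 5-mers were TGACA and AAACA. In intron 23 it also had sites at GAACT and at 2 other 5-mers that end in CT.

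All 10 exonic DRACH sites of the set were in last exons, with a median of 257.5 nt to the nearest exon junction and a range of 46 to 2247 nt. Of the 23 exonic sites at other 5-mers, 5 were in last exons and 18 in other exons. Over all coding genes 74.6% of exonic DRACH sites in the cerebellum library and 74.1% in the cerebrum library were in last exons, so most such sites were there in general. At other 5-mers the shares over all genes were 65.8% and 61.2%, and in the cerebrum library 4 of 21 sites of the set were in last exons. The reference isoforms of the set had 227 DRACH adenosines in last exons, 251 in internal exons of at most 400 nt, 15 in first exons and 0 in longer internal exons. The 18 sites at other 5-mers in the inner exons had a median distance of 25 nt to a junction, close to the 29 nt of all 3594 adenosines in those exons. Site 12 of Cyfip2 was the last base of exon 29, and its 5-mer was TGAGT in the genome and TGAGC across the junction. Site 11 was 3 nt inside intron 27, at GTAAG.

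**Figure D5:**
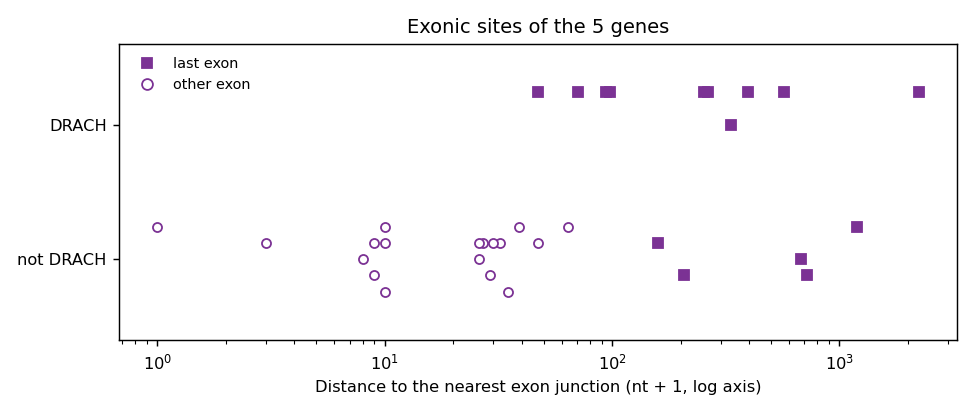
Each mark is an exonic site of the set, placed by its distance to the nearest exon junction (x axis, nt + 1, log axis) and by motif (y axis), with the genes offset in order from Fmr1 (lowest) to Cyfip2 (highest). The 10 DRACH sites were all in last exons (squares), at least 46 nt from a junction, and 18 of the 23 other sites were in other exons (circles).

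The paralogs were compared codon by codon on alignments of their reference proteins. Fmr1 and Fxr1 had the same amino acid at 67.4% of 521 aligned codons, and Fmr1 and Fxr2 at 62.9% of 544. Fxr1 and Fxr2 had it at 72.2% of 525, and Cyfip1 and Cyfip2 at 87.4% of 1252. No aligned codon, nor any pair within 1 codon, had a site in both genes of a pair. The CDS held 9 sites in Cyfip1, 8 in Cyfip2 and 2 in each of the other genes. With so few sites over so many codons, this absence carries no weight. At some sites the paralog kept the motif. Site 14 of Cyfip2, a GAACA, was aligned with the GGACA of Cyfip1 at position 55930068 of chromosome 7, shown above, where 20 of 25 nt were identical. Site 4 of Cyfip1, at GGATT, was aligned with GGATT in Cyfip2, and site 2 of Cyfip2, at TCAAG, with TCAAG in Cyfip1, with 22 and 24 of 25 nt identical. Site 6 of Fmr1 was aligned with ACAGA in both Fxr1 and Fxr2. At other sites it did not. Site 13 of Cyfip2 was aligned with CAACG in Cyfip1, site 15 with ATGGC and site 16 with CGAGA, none of which is DRACH. The reverse also occurred, as site 10 of Cyfip1, at CAACC, was aligned with the DRACH 5-mer GAACA in Cyfip2, which was unlisted. Reads were aligned after conversion of A to G, and reading A as G in both genes of a pair left 24 of 25 nt identical at Cyfip2 site 2 and 22 of 25 at Cyfip2 site 14. The part of read assignment between paralogs in these sites was not tested.

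Sites were also counted in genes of partners and targets of the 5 proteins. Of 10 genes of the WAVE complex and its activator Rac1, 8 had a site in each library, all 8 with a DRACH site in each. Over all coding genes 41.2% and 57.4% had a site in the cerebellum and cerebrum libraries, and 84.9% and 78.8% of these had a DRACH site. Nckap1l and Abi3 had none. Abi2, an adaptor subunit, had 22 sites in the cerebellum library and 38 in the cerebrum library, with 18 in both. Brk1, the smallest subunit, had 8 and 11, with 7 in both. Nckap1, which binds CYFIP directly in the complex, had 7 and 19, with 3 in both. Of 10 translation and granule partners of FMRP, 10 had a DRACH site in each library. Eif4e, the cap-binding protein to which CYFIP1 binds, had 6 and 14 sites, and all 6 of its cerebellum sites were shared and DRACH. Of 10 mRNAs known as FMRP targets, 9 had a site in each library and Arc had none. Map1b, which encodes a microtubule-associated protein, had 78 and 100, with 59 in both. These lists were picked for function and not matched to the 5 genes in length or expression, so the counts are side by side only.

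The genes most like each member were those with the smallest distance over log2(count + 1) of CDS, 3′ UTR and intron sites in both libraries. For Cyfip2 they were Osbpl9 (distance 0.47) and Atp13a3 (0.84), and for Fxr1 Prmt3 (0.83) and Crmp1 (0.84). For Cyfip1 they were Adam1a and D11Wsu47e (0.80 each). For Fmr1 they were Rps3a1, with the same 6 counts, and Rxrg (0.32). For Fxr2, 25 genes shared all 6 counts, among them Abcf2 and Actr8.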

How the data were processed

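The authors' deposited files, 1 per library, give site positions of a GLORI experiment with no score. Per the methods of the study, GLORI-tools was run on mm10 and on a PWK version of it, both site sets were united, and the sites kept had a rate over 0.1 and over 8 reads. Depth per library was not analysed here, since only positions were given. Most shares carry 95% Wilson intervals for counting error over sites or adenosines, which do not cover the spread between genes.

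Positions were placed on GENCODE M21 and GRCm38 with Python 3.11.15 and pysam 0.24.0, tested on simulated positions. The reference isoform was the longest with a complete CDS and both UTRs. The annotated 5′ UTR of that of Fxr1 has 5 nt. DRACH was read on the strand of the gene, and proteins were aligned with Biopython 1.88 (BLOSUM62, gap scores -11 and -1). Sites were to be shown with sequence where they were exonic DRACH sites shared by both libraries (nearest the stop codon, most upstream, most downstream) or, in genes with under 3 of these, all exonic DRACH sites. The other sequences, and the minimum of 40 DRACH adenosines, were chosen after values were seen. Members and gene lists were chosen with earlier results of these data known. Alternatives covered motif, exons, isoform, window and shared sites. The tagged alternative isoform (appris_principal_1) did not exist for Fmr1, for which its appris_principal_5 isoform was used.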

Additional observations from a re-analysis of the deposited data

Results flagged for a closer look

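Listed positions also lay on the strand opposite to the genes. Inside the Cyfip1 interval 5 positions were on the opposite strand, 1 in the cerebellum library and 4 in the cerebrum library. Inside the Cyfip2 interval 4 were, all in the cerebrum library. Both counts were flagged only because no comparison of the 5 genes used these positions. Fxr1 had 3 as well, in the cerebrum library, and Fmr1 and Fxr2 had 0. Coding genes overlap these 3 members on the opposite strand, namely Nipa2 for Cyfip1, Fndc9 for Cyfip2 and Dnajc19 for Fxr1. Whether the positions belonged to those genes was not tested, and no share over all genes is given beside the counts.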

How the results depend on the processing

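No paired analysis was possible because each tissue had 1 library. Of the alternatives, 37 values moved by less than their interval and 13 by more. With sites found in both libraries only, 5 sites remained in each library, 100% of them DRACH, and in the cerebrum library 20% were in CDS, 60% in 3′ UTRs and 20% in introns. With DRACH sites only, the cerebrum library had 18 sites, 27.8% of them shared, 11.1% in CDS and 33.3% in 3′ UTRs, and 50% of the exonic ones were in the stop codon window. On exons of the reference isoforms it had 29. Counting RefSeq exons as exons, chosen after seeing the data, left the intron share of the cerebrum library at 38.6%. Without rates or reads, a site listed in 1 library only may have been just under the authors' minimum in the other.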
